A study of Mus musculus with 7 samples.

Results

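The 10 apolipoprotein genes described here are Apoe with its chromosome 7 neighbours Apoc1, Apoc4 and Apoc2, the chromosome 9 cluster of Apoa1, Apoc3, Apoa4 and Apoa5, and the separately located Apoa2 and Apob. They were taken by gene symbol from the deposited liver count table of 14889 genes, and all 10 were among the 13693 genes tested. The livers came from ApoE-/- mice on a C57BL/6 background, aged 4 months. All animals had eaten a Western diet for 3 months. PX-478 was given intraperitoneally at 40 mg/kg, on a schedule the labels call bi-weekly, to 3 mice, and saline by the same route and schedule to 4 mice. PX-478 is a small molecule known for lowering HIF-1α, a transcription factor subunit that oxygen destabilises. Both groups are labelled ApoE-/-, no group with an intact Apoe gene is analysed here, and the labels do not name the allele.

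Apolipoproteins are the protein part of the particles that carry lipid in blood, and the liver secretes most of those studied here. Apolipoprotein B forms the backbone of very-low-density lipoprotein (VLDL), apolipoproteins A-I and A-II are the main structural proteins of high-density lipoprotein (HDL), and apolipoprotein E directs remnant particles to receptors on hepatocytes. The small C apolipoproteins and apolipoprotein A-V move between particles and influence how fast lipoprotein lipase removes their triglyceride. Mice without apolipoprotein E accumulate remnant particles and develop atherosclerosis, which a Western diet accelerates.

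The Apoe cluster occupied chr7:19671579-19701310 in GRCm38.p6 (mm10), a span of 29732 bases with all 4 genes on the minus strand. Clptm1 flanked it at a gap of 6548 bases on one side and Tomm40 at a gap of 2 bases on the other. The Apoa1 cluster occupied chr9:46228630-46271921, a span of 43292 bases in which Apoc3 lay on the minus strand and the other 3 genes on the plus strand. Sik3 and Zpr1 flanked it at gaps of 4435 and 1142 bases. Apoa2 lay at chr1:171221564-171226379 and Apob at chr12:7977629-8016839, both on the plus strand. Apoc2 and Apoc4 share a readthrough gene, Gm44805, and Apoa2 overlaps Tomm40l, so the split of reads among overlapping genes is uncertain.

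RefSeq promoter sequences of GRCm38.p6 were found for 8 of the 10 genes, Apoc1 and Apoc3 being the others. The 250 bases before the start are shown for Apoe, the gene the genotype label names, and for the 4 genes with a match to ACGTG or TATAAA, with all matches in capitals. The windows are chr7:19699189-19699438 on the minus strand for Apoe, chr7:19677942-19678191 on the minus strand for Apoc2, chr9:46268383-46268632 on the plus strand for Apoa5, chr12:7977427-7977676 on the plus strand for Apob and chr1:171224804-171225053 on the plus strand for Apoa2. RefSeq lists 3 starts for Apoe and 2 each for Apoa2 and Apoa5, and the start nearest the principal transcript was used. That start lay 148 bases from the principal transcript's for Apoa4, 50 bases for Apoa1, 29 bases for Apob and 19 bases for Apoc4. For Apoe, Apoa2, Apoa5 and Apob it lay inside the gene span, so distances below count from the start used and not from the end of the gene.
Apoe: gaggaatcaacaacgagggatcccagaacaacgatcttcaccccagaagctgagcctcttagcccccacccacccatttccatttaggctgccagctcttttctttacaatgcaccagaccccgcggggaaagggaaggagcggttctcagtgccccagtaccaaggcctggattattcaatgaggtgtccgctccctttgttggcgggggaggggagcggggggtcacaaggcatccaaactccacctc
Apoc2: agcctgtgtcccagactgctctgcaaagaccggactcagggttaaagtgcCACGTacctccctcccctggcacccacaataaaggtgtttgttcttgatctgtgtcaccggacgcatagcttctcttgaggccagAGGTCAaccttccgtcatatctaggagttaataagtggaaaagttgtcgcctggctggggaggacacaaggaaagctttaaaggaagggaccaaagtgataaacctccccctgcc
Apoa5: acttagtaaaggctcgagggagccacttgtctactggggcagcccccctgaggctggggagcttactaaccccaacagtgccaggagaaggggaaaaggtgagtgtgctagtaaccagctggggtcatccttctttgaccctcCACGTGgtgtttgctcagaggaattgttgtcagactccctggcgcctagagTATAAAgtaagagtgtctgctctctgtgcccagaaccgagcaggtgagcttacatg
Apob: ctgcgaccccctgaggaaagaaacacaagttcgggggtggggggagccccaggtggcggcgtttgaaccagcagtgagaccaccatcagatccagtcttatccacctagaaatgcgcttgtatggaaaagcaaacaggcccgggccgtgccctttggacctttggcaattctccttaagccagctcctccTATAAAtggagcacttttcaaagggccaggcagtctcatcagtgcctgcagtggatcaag
Apoa2: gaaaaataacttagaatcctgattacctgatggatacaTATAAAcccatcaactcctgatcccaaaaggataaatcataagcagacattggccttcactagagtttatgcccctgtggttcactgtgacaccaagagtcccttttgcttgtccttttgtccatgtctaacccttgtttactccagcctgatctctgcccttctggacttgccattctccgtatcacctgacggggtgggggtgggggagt
Each motif was searched on both strands. The letters ACGTG, the core of the element that hypoxia-inducible factors bind, occurred in the windows of Apoc2, starting 200 bases before the start, and Apoa5, at 106 and 107 bases. That is 2 of 8 windows, against 16.6% of 32851 promoter windows of the same length. The Apoa5 match is the palindrome CACGTG, which contains ACGTG on both strands and was present in 6.02% of windows. TATAAA was found in Apoa2, Apoa5 and Apob, at 212, 56 and 60 bases before the start, and in 12.4% of windows. AGGTCA, a nuclear receptor half-site, was found in Apoc2 and Apoc4 at 115 and 25 bases and in 14% of windows. CAAAGTCCA, a motif of the type bound by HNF4, was in none of the 8 windows and in 0.384% of all windows. These are matches of letters and no binding was measured.

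The libraries held between 10285776 and 17257304 counted reads. PX-478 replicate 2 stood apart from the others: its TMM factor was 1.286 against 0.8883 to 1.052 elsewhere, and 22.4% of its reads came from 15 mitochondrially encoded genes, against 27.1% to 36.7% in the other libraries. The 10 genes took 3.04% to 4.54% of the reads in PX-478 livers and 3.26% to 4.29% in saline livers. Cfd, which encodes complement factor D, was the only gene in the table past the threshold: it averaged 0.432 ± 0.281 CPM in PX-478 livers (SD, n = 3) and 25.7 ± 11.3 CPM in saline livers (SD, n = 4; log2 fold change -5.89, edgeR adjusted p = 0.0006625). The PX-478 values were 0.279, 0.756 and 0.261 TMM-scaled CPM, with a lowest count of 4 reads. Before TMM scaling, 3 reads correspond to 0.174 to 0.292 CPM, so that range is not on the scale of these values. The size of that fold change therefore rests on few reads. Levels below are TMM-scaled CPM, that is reads relative to the scaled total of their library.

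Reads assigned to Apoe were present in every library. They numbered 3038, 1899 and 5378 in PX-478 livers and 4030, 3278, 1960 and 2210 in saline livers. The level was 211.6, 143.6 and 350.9 CPM in PX-478 livers, against 262.5, 284.3, 129.6 and 138.4 CPM in saline livers. The groups overlap, and PX-478 replicate 3 was the highest library. PX-478 over saline gave a log2 fold change of 0.21 with a standard error of 0.35, an interval of -0.57 to 0.99 and an adjusted p of 0.925. Without PX-478 replicate 3 it was -0.20, so that 1 library sets its sign. Gene-level counts do not show which exons the reads came from, and these reads do not check the genotype label.

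Per length, Apoe sat far below its neighbour Apoc1. Apoe averaged 167 ± 75.1 CPM per kilobase in PX-478 livers (SD, n = 3) and 145 ± 57.6 in saline livers (SD, n = 4), where Apoc1 averaged 18136 ± 2251 and 17719 ± 2394. For every 100 Apoc1 reads there were 1.92, 1.57 and 4.01 Apoe reads in PX-478 livers and 2.76, 2.86, 1.22 and 1.81 in saline livers. Among 12616 genes with a length, Apoe ranked between 203 and 496 from the top in the 7 libraries, so it was still well above most genes of the table.

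**Figure D1:**
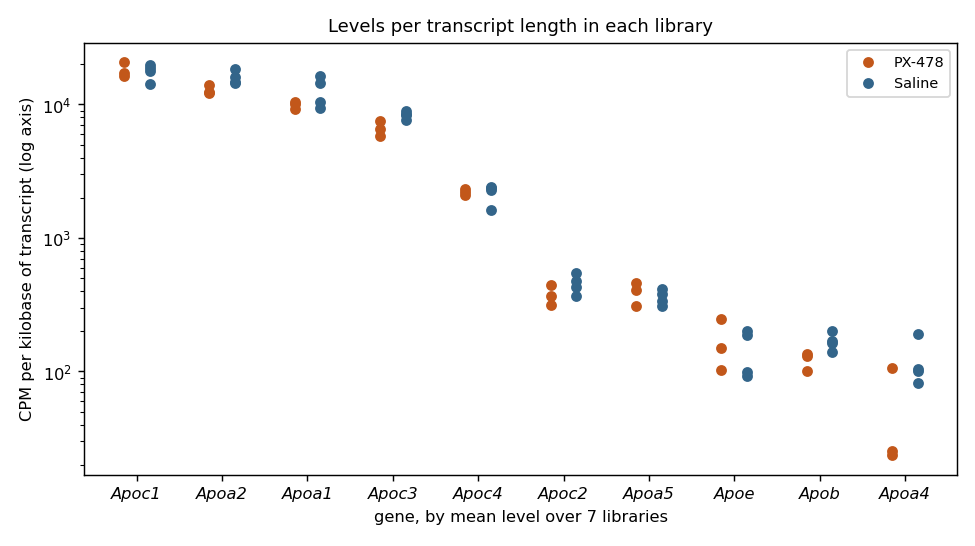
Level of each of the 10 genes in CPM per kilobase on a log axis, with 1 point per library, PX-478 livers left of saline livers. Apoc1, Apoa2 and Apoa1 lie highest, and Apoe, Apob and Apoa4 lie lowest.

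Ordered by mean CPM per kilobase over all 7 libraries, the genes ran Apoc1 (17898), Apoa2 (14612), Apoa1 (11510), Apoc3 (7602), Apoc4 (2180), Apoc2 (422), Apoa5 (374), Apoe (154), Apob (149) and Apoa4 (90.5). Neighbours in this order whose ranges over libraries overlapped were Apoc1 and Apoa2, Apoa2 and Apoa1, Apoc2 and Apoa5, Apoe and Apob, and Apob and Apoa4. Apoa2 lay above Apoa1 within each of the 7 libraries, whereas Apoc1 exceeded Apoa2 in 5, Apoc2 exceeded Apoa5 in 4 and Apoe exceeded Apob in 4. Dividing by the union of all exons in place of the principal transcript exchanged Apoc1 with Apoa2 and Apoe with Apob, and lowered Apoc4 to 462. The order therefore rests on the chosen transcript length at those places.

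Apoc1 encodes a small apolipoprotein that slows the receptor uptake of triglyceride-rich particles. It had 11011, 9171 and 8763 CPM in PX-478 livers, against 9522, 9950, 10599 and 7635 CPM in saline livers. The groups overlap, with the highest library in the PX-478 group and the lowest in the saline group. Its log2 fold change was 0.03 with an interval of -0.44 to 0.51.

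Apoc4, which encodes a minor VLDL apolipoprotein, had 1251, 1181 and 1124 CPM in PX-478 livers, against 1225, 1272, 1286 and 872 CPM in saline livers. Saline replicate 4 stood below the other 6 libraries, which span 1124 to 1286. Apoc4 kept a close proportion to Apoc1, with 11.4 to 12.9 Apoc4 reads for every 100 Apoc1 reads in PX-478 livers and 11.4 to 12.9 in saline livers. Pearson's r of log2 CPM between the pair over 7 libraries was 0.908, the highest among the 45 pairs of the 10 genes, given as a description since the values share library depth and scaling.

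Apoc2, which encodes the cofactor of lipoprotein lipase, had 270, 321 and 230 CPM in PX-478 livers, against 399, 348, 268 and 313 CPM in saline livers. The groups overlap, and the lowest library was PX-478 replicate 3. PX-478 over saline, Apoc2 had a log2 fold change of -0.28 with an interval of -0.72 to 0.16. Reads per 100 Apoc1 reads were 2.45 to 3.50 in PX-478 livers and 2.53 to 4.19 in saline livers.

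Neither gene that flanks the Apoe cluster passed the threshold. Tomm40, which encodes a subunit of the mitochondrial import pore, averaged 48.7 ± 12.6 CPM in PX-478 livers (SD, n = 3) and 51.6 ± 11.3 CPM in saline livers (SD, n = 4; log2 fold change -0.08). Clptm1 averaged 37.0 ± 3.15 CPM in PX-478 livers and 44.5 ± 5.45 CPM in saline livers (log2 fold change -0.27). None of the 11 tested genes around the Apoe locus passed the threshold, with 3 having a positive and 8 a negative log2 fold change and a median of -0.08. The smallest unadjusted p-values among them belonged to Gemin7 (log2 fold change -0.53), Relb (-0.49) and Clptm1.

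**Figure D2:**
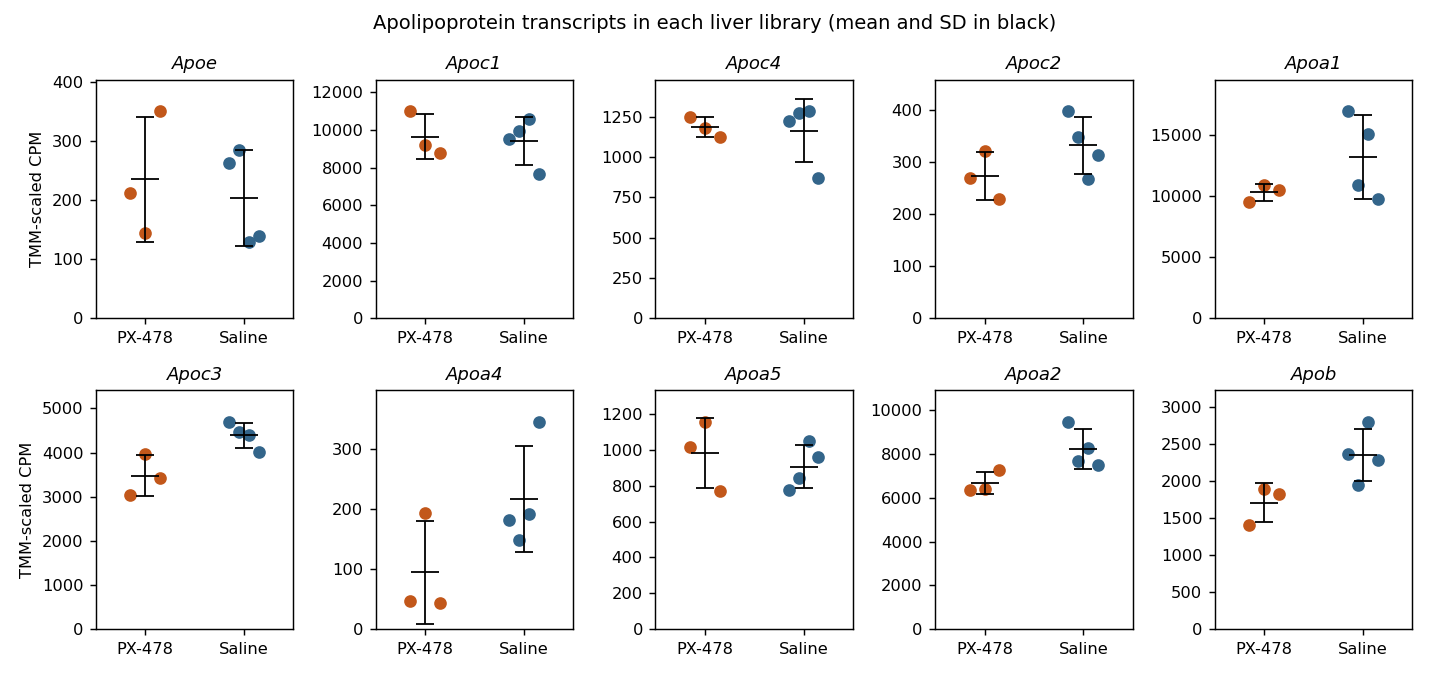
TMM-scaled CPM of each of the 10 genes in every library, 1 panel per gene, with PX-478 livers on the left, saline livers on the right and bars for the group mean and SD. On this scaling the groups do not overlap for Apoa2, Apoc3 and Apob, and Apoa4 of PX-478 replicate 2 lies among the saline values.

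In the Apoa1 cluster, Apoa1, the main protein of HDL and the activator of the cholesterol-esterifying enzyme LCAT, had 9525, 10856 and 10430 CPM in PX-478 livers, against 16936, 10873, 15056 and 9713 CPM in saline livers. The saline values spread widely, with 2 of the 4 libraries high and 2 at the PX-478 level. For Apoa1 the log2 fold change was -0.36 with a standard error of 0.25 and an interval of -0.90 to 0.18.

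Apoc3, which encodes an inhibitor of lipoprotein lipase and of remnant uptake, had 3034, 3959 and 3425 CPM in PX-478 livers, against 4704, 4466, 4393 and 4010 CPM in saline livers. All 3 PX-478 values lie below all 4 saline values after TMM scaling, with 3959 and 4010 adjoining, and the groups overlap with CPM by library size. The log2 fold change was -0.34 with an interval of -0.79 to 0.11 and an adjusted p of 0.778.

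Apoa4, which encodes an apolipoprotein of HDL and of intestinal particles, varied most of the 10 genes, by 8.07-fold between the lowest and the highest library, where Apoe varied 2.71-fold, Apob 2.00-fold and the other 7 genes 1.78-fold or less. It had 46.3, 193 and 42.9 CPM in PX-478 livers, against 182, 148, 191 and 346 CPM in saline livers. PX-478 replicates 1 and 3 lie below every saline library, while PX-478 replicate 2 lies within the saline range. Its log2 fold change was -1.20 with a standard error of 0.59, an interval of -2.59 to 0.18 and an adjusted p of 0.740. Without PX-478 replicate 2, the library with the high TMM factor, it was -2.28 with an adjusted p of 0.0678. Leaving out PX-478 replicate 1, PX-478 replicate 3 or saline replicate 4 brought it to -0.87, -0.86 and -0.88. Leaving out saline replicate 1, 2 or 3 gave -1.28, -1.35 and -1.26. Apoa4 reads per 100 Apoa1 reads were 0.486, 1.78 and 0.411 in PX-478 livers and 1.07, 1.36, 1.27 and 3.56 in saline livers.

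Apoa5, which encodes an apolipoprotein that promotes lipoprotein lipase action, had 1018, 1159 and 773 CPM in PX-478 livers, against 777, 845, 1048 and 959 CPM in saline livers. Both the highest and the lowest library were in the PX-478 group. The log2 fold change was 0.12 with an interval of -0.34 to 0.58. Of the flanking genes, Sik3, a kinase gene, averaged 44.2 ± 9.995 CPM in PX-478 livers and 35.6 ± 7.18 CPM in saline livers (log2 fold change 0.31). Zpr1, a zinc finger gene, had 169, 428 and 112 CPM in PX-478 livers and 117, 159, 185 and 199 CPM in saline livers (log2 fold change 0.52), the high value being PX-478 replicate 2. None of the 10 tested genes around this cluster passed the threshold, 7 having a positive and 3 a negative log2 fold change with a median of 0.11, and the smallest unadjusted p-values belonged to Pafah1b2 (-0.61), Sik3 and Tagln (-0.36).

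Apoa2, the second structural protein of HDL, had 6344, 6405 and 7273 CPM in PX-478 livers, against 9491, 7672, 8297 and 7503 CPM in saline livers. All PX-478 values lie below all saline values after TMM scaling. With CPM by library size the groups overlap, PX-478 replicate 2 having 8232 CPM and saline replicates 2, 3 and 4 having 8069, 7423 and 7245 CPM. For Apoa2 the log2 fold change was -0.30 with an interval of -0.76 to 0.15 and an adjusted p of 0.806.

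Apob had 1402, 1898 and 1822 CPM in PX-478 livers, against 2368, 1953, 2806 and 2290 CPM in saline livers. The groups do not overlap after TMM scaling, although PX-478 replicate 2 and saline replicate 2 lie close together, and they overlap with CPM by library size. The log2 fold change was -0.46 with a standard error of 0.22 and an interval of -0.93 to 0.0065. Its unadjusted p of 0.0528 was the smallest of the 10 genes, and its adjusted p was 0.722.

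**Figure D3:**
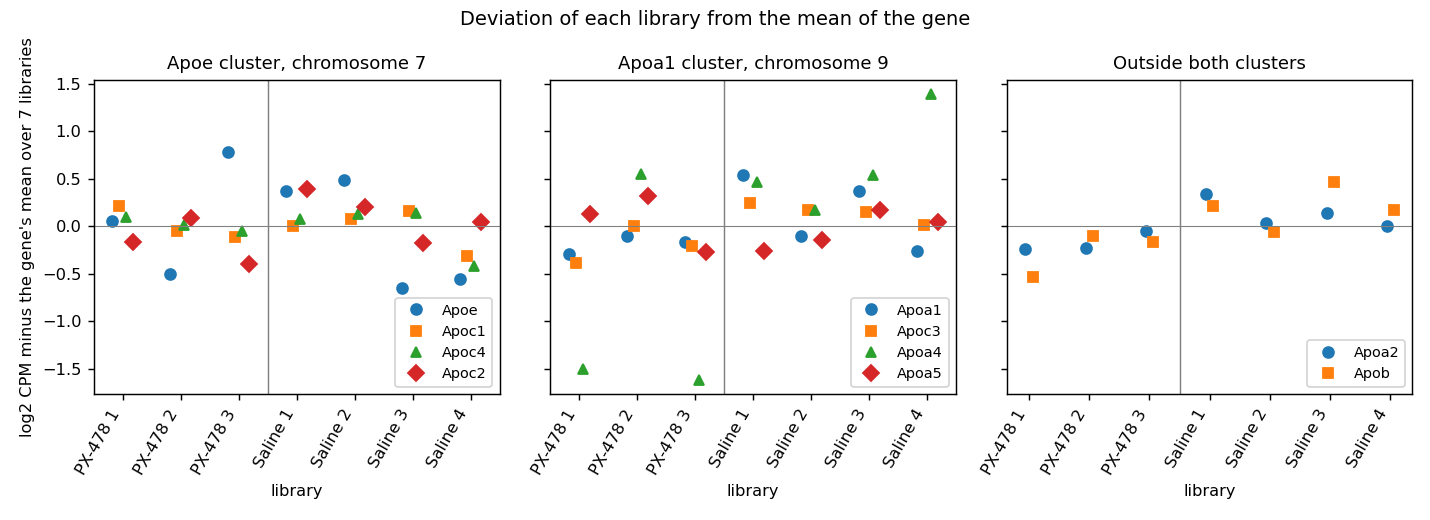
Log2 CPM of each gene in each library minus that gene's mean over the 7 libraries, by genomic group, with PX-478 libraries left of saline libraries. Apoc1 and Apoc4 lie close together in each library, and Apoe and Apoa4 deviate most.

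None of the 10 genes passed the threshold of adjusted p below 0.05, where 0.0073% of the tested genes did, and none had an unadjusted p below 0.05, where 6.97% did. DESeq2 also called none of the 10 after adjustment, where it called 0.639% of all genes, and limma-voom called 0% of all genes. At an unadjusted p below 0.05 DESeq2 had 1 of the 10, Apob, against 7.72% of all genes, and limma-voom had 2, Apoa4 and Apob, against 7.77%. A positive log2 fold change was found for 4 genes and a negative one for 6, with a median of -0.293, beside a median of -0.0035 and 50.3% negative over all genes tested. Groups did not overlap, with PX-478 lower, for 3 of 10 genes (Apoa2, Apoc3 and Apob), against a background of 4.29%, and with PX-478 higher for 0 of 10, against 4.3%. With CPM by library size in place of TMM scaling, 0 of 10 did not overlap with PX-478 lower, against 1.47%, and 0 of 10 with PX-478 higher, against 5.89%. That scaling moved the median log2 fold change of all genes to 0.15, and Apob stood at -0.30 on it.

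**Figure D4:**
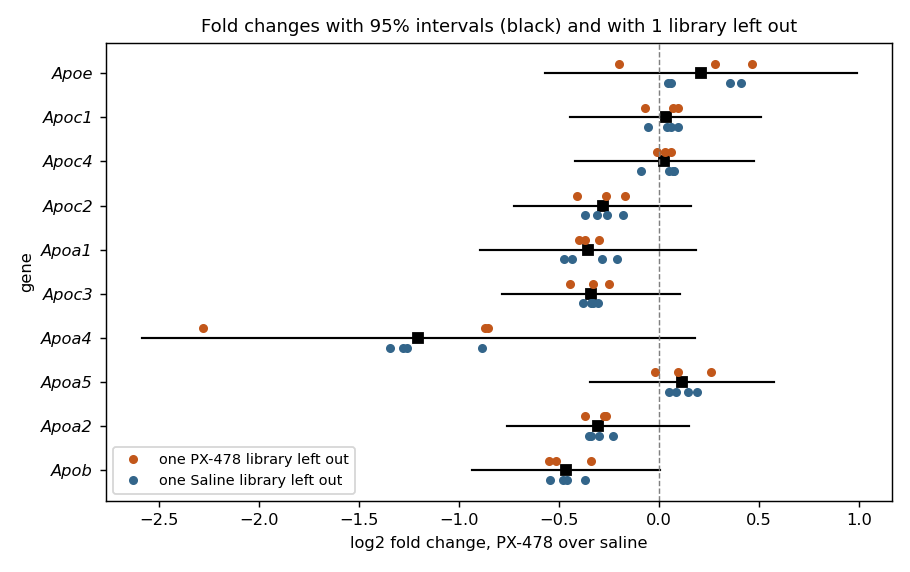
Difference between PX-478 and saline livers on the log2 scale for each of the 10 genes, positive where PX-478 was higher, with its 95% interval from edgeR, on a linear axis with a line at 0. Orange points above each interval give the value with 1 PX-478 library left out and blue points below it with 1 saline library left out, the Apoa4 point at -2.28 being without PX-478 replicate 2. Every black interval includes 0, and the interval of Apob reaches 0.0065 at its upper end.

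In the authors' deposited table, the unadjusted p was below 0.05 for 6 of the 10 genes, all lower in PX-478, against 25.9% of its 14889 genes in either direction and 13.1% lower. These were Apob (p = 0.00116), Apoc3 (0.00248), Apoa2 (0.00593), Apoa4 (0.00797), Apoa1 (0.0283) and Apoc2 (0.0340), all in the authors' deposited table. Their log2 fold changes matched those above, with -0.46 for Apob in the authors' deposited table. All 14 count columns were also entered in edgeR as separate libraries, though each sample has 2 that differ by less than sampling noise. That called 2 of the 10 genes at an adjusted p below 0.05, against 9.97% of all genes. At an unadjusted p below 0.05, that edgeR run had the same 6 genes as the authors' deposited table. The values were 0.00122 for Apob, 0.00253 for Apoc3, 0.00579 for Apoa2, 0.00886 for Apoa4, 0.0294 for Apoa1 and 0.0341 for Apoc2. The share of all genes at that unadjusted threshold was not computed for this run. How the columns entered the authors' test is not stated in the sources used here.

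Hepatocyte markers were mostly lower in PX-478 livers too, without passing the test. Of 8 markers, 7 had a negative log2 fold change, with a median of -0.31, and their summed level was 24432 to 31302 CPM in PX-478 livers and 27049 to 38168 CPM in saline livers. Those with the smallest p-values were Ttr (log2 fold change -0.57), Serpina1a (-0.44) and Alb (-0.32), none past the threshold, and every marker had at least 1201 reads in every library. Of 14 macrophage markers, 13 were negative, with a median of -0.53, and the summed level was 429 to 503 CPM in PX-478 livers and 465 to 771 CPM in saline livers. The smallest p-values among them belonged to Lyz2 (-1.12, adjusted p = 0.179), Lgals3 (-0.94) and Cd68 (-0.91), and the lowest count of any of the 14 was 11 reads. For 5 of the 14 the groups did not overlap with PX-478 lower, against 4.29% of all genes, and for 0 with PX-478 higher, against 4.3%. By library size these were 3 of 14 with PX-478 lower, against 1.47%, and 0 of 14 with PX-478 higher, against 5.89%. Endothelial markers leaned the other way, with 6 of 8 positive and a median of 0.398, led in order of p by Kdr (0.98, adjusted p = 0.602). Their summed level was 157 to 187 CPM in PX-478 livers and 110 to 162 CPM in saline livers. The 2 negative markers were Cdh5 (-0.09) and Pecam1 (-0.47). Pecam1 had 10.3, 10.1 and 9.66 CPM in PX-478 livers, against 12.7, 12.9, 12.8 and 16.9 CPM in saline livers. Groups did not overlap for 1 of the 8 with PX-478 lower (Pecam1), against 4.29% of all genes, and for 1 with PX-478 higher, against 4.3%. With CPM by library size, 0 of 8 did not overlap with PX-478 lower, against 1.47%, and 0 of 8 with PX-478 higher, against 5.89%. Stellate cell markers were split at 4 positive and 4 negative with a median of 0.00504, and summed to 76.9 to 154 CPM in PX-478 livers and 100.8 to 130.5 CPM in saline livers. Of 5 cholangiocyte markers, 2 were positive and 3 negative, with a median of -0.118 and sums of 78.6 to 132 CPM in PX-478 livers and 74.9 to 109.7 CPM in saline livers. Most of each sum was Spp1, which is also among the macrophage markers. Spp1 had 79.6, 112 and 66.4 CPM in PX-478 livers and 86.5, 64.3, 66.0 and 62.8 CPM in saline livers. The lowest count of any of the 5 was 6 reads, in Epcam. Of 8 adipocyte markers 4 were in the table, 2 positive and 2 negative, Cfd being the only called one. In bulk tissue, fewer cells of a type and less RNA per cell cannot be told apart, and the part of these markers in the apolipoprotein values was not tested. Of 8 enterocyte markers, relevant to Apoa4 and Apob, which the intestine also makes, only Fabp2 was in the table, at 19.92 to 34.04 CPM in PX-478 livers and 26.04 to 36.73 CPM in saline livers.

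The wider lipoprotein pathway showed no called gene in any of 5 lists. Among 16 other tested genes listed with the apolipoproteins, 5 were positive and 11 negative with a median of -0.27. Not all 16 encode apolipoproteins, since they include the RNA-editing enzyme gene Apobec1, the receptor gene Apobr and the mitochondrial protein genes Apoo and Apool. The smallest p-values belonged to Apon (-0.43), Apol9b (0.39) and the acute-phase gene Saa1 (-2.02), whose saline mean rested on saline replicate 4 at 364 CPM. Of 15 genes of particle assembly, 6 were positive and 9 negative. They included Ces1d, a carboxylesterase that mobilises triglyceride, at 673, 283 and 587 CPM in PX-478 livers and 69.0, 211, 74.8 and 221 CPM in saline livers. All 3 PX-478 values exceed all 4 saline values, with a log2 fold change of 1.84 and an adjusted p of 0.508. It was the 1 gene of the 15 without overlap and with PX-478 higher, against 4.3% of all genes, and 3 of the 15 were without overlap and lower, against 4.29%. With CPM by library size, 0 of the 15 were without overlap and lower, against 1.47%, and 2 were without overlap and higher, against 5.89%. Pla2g12b (-0.75) and Tm6sf2 (0.53), both needed for VLDL lipidation in mice, followed.

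Of 15 genes of remodelling, 7 were positive and 8 negative, led in order of p by Pltp (-0.80), the phospholipid transfer protein, Lmf1 (-0.54), a maturation factor of lipases, and Lpl (-0.63), lipoprotein lipase. In the whole list the groups did not overlap, with PX-478 lower, for 4 of 15 genes, against 4.29% of all genes, and for 1 of 15 with CPM by library size, against 1.47%. The smallest adjusted p was 0.481. Of 14 receptors and their regulators, 6 were positive and 8 negative, led in order of p by the fatty acid transporter Cd36 (-0.96) and the HDL receptor Scarb1 (0.55). Of 29 tested transcriptional regulators, 14 were positive and 15 negative with a median of -0.00345, led in order of p by Esrra (0.55), Srebf1 (0.74) and Foxo1 (0.48).

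The genes whose log2 CPM followed Apoe most closely over the 7 libraries were 9630013D21Rik (Pearson r 0.978), Zc3h7b (0.974), Cnot8 (0.955), Trappc2l (0.951) and Smim22 (0.951). For Apob, the gene with the smallest p among the other 9, they were Tle5 (0.997), Otud6b (0.990), Arf4 (0.985), Exosc1 (0.982) and Ppp2ca (0.981). These are the highest of 13693 values over 7 libraries that share depth and scaling, and they are given as a description.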

How the data were processed

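RNA of 7 livers was sequenced, with groups and replicate numbers from the sample titles. Housing and handling of the animals are not in the labels, and the p-values therefore reflect only how these samples vary. The authors deposited whole-number read counts per gene. The submitters' processing notes name featureCounts, edgeR and mm10, without versions, and no aligner. These counts are raw, and each gene exceeds 0.5 CPM in 2 or more of 14 count columns. The file headers list the authors' own log2 fold change, average log2 CPM, F statistic (a score) and unadjusted p-value, as deposited. Another 7 columns of averages were not used.

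Each sample has 2 count columns. Chi-square per gene was 0.291 to 0.765 between them and 49.2 to 146 between libraries of a group, so both differed by less than sampling noise and their rounded mean was counted as 1 sample.

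Genes were filtered with filterByExpr, scaled by TMM and compared with edgeR 4.0.16 in R 4.3.3 (quasi-likelihood F test, robust, no covariates), with Benjamini-Hochberg adjustment over 13693 genes, a threshold of 0.05 and 95% intervals. The biological coefficient of variation was 0.325, and 3 reads correspond, before TMM scaling, to 0.174 to 0.292 CPM, which covers counting error only. The test was tested on simulated data. Alternatives used DESeq2 1.42.0, limma 3.58.1, other scalings, filters and columns, and samples left out. Levels per length use the longest principal transcript of GENCODE M21. The genes and lists were chosen with earlier results of these data known. Beyond the 10 genes, the text names the 3 genes of each pathway list, and of the hepatocyte and macrophage markers, with the smallest unadjusted p, the endothelial marker with the smallest, the flanking genes, genes past the threshold and the 5 genes most like Apoe and Apob. Outside this rule, Pecam1, Cdh5, Spp1, Apobec1, Apobr, Apoo and Apool are named to describe their lists. A gene that this rule takes is not reported here.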

Additional observations from a re-analysis of the deposited data

Results flagged for a closer look

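Apoc4 in saline replicate 4 lay far from the other saline livers. It had 871.6 CPM, where saline replicates 1, 2 and 3 had 1225, 1272 and 1286 CPM. The gap exceeds Dixon's 95% critical value for 4 samples, and 10 groups were tested, of which chance flags about 1 in 20. Apoc1 was also lowest in saline replicate 4, at 7635 CPM, against 9522, 9950 and 10599 CPM in saline replicates 1, 2 and 3.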

How the results depend on the processing

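Under 20 other settings no apolipoprotein gene passed the threshold, and the lowest adjusted p was 0.0678 (Apoa4, edgeR without PX-478 replicate 2). With all 14 count columns as separate libraries, chosen after seeing the data, 2 did, Apob and Apoc3 (adjusted p = 0.0230 and 0.0338), beside 1360 of all genes (643 higher, 717 lower). The table-wide count of 1 gene was 5 with library size only, 84 in DESeq2 (46 higher, 38 lower), 0 in limma-voom (1064 at an unadjusted p below 0.05, beside 954 in edgeR), 3 with the replicate block, and 1 to 5 with samples left out, 5 being reached without PX-478 replicate 2, PX-478 replicate 3 or saline replicate 4. Leaving out samples gave log2 fold changes of -0.198 to 0.465 for Apoe, negative without PX-478 replicate 3, -0.0699 to 0.0976 for Apoc1, -0.0904 to 0.0771 for Apoc4 and -0.0209 to 0.262 for Apoa5. Apoc1 became -0.0609 and Apoc4 -0.0907 with the replicate block, both were also negative without PX-478 replicate 1 or saline replicate 4, and Apoa5 was negative without PX-478 replicate 2. The cause was not tested. Apoc2, Apoa1, Apoa2, Apoa4, Apoc3 and Apob stayed negative in all 21 settings. Same-numbered samples correlated at -0.0211, -0.0742 and -0.0017 in their deviations, so the numbers were not taken to pair the samples. With 3 livers against 4, changes within the intervals given could not be resolved.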
